A study of Glycine max with 6 samples.

Results

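The soybean circadian clock was examined here through 7 genes, 4 LHY/CCA1-like genes and 3 GIGANTEA genes, out of 66184 genes measured on each array. They were given as a list of gene identifiers, and all 7 were on the array with 1 probe set each. The LHY/CCA1-like genes were Glyma16g01980, Glyma07g05410, Glyma03g42260 and Glyma19g45030. The GIGANTEA genes were Glyma20g30980 (GmGI1), Glyma10g36600 (GmGI2, the maturity gene E2) and Glyma09g07240 (GmGI3).

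LHY and its close relative CCA1 are MYB-type transcription factors that peak around dawn in Arabidopsis and repress genes expressed towards evening, GIGANTEA among them. GIGANTEA is a large plant-specific protein that peaks late in the day in Arabidopsis, where it acts with the F-box protein FKF1 to remove CDF repressors and so promotes the flowering regulator CONSTANS. In soybean, the E2 locus encodes a GIGANTEA protein and is one of the loci that set flowering time and maturity.

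RNA of leaves of the cultivar Williams 82 at full bloom, the R2 stage, was profiled. Water was withheld from the drought-stressed plants for 5 days from the onset of flowering, until soil moisture had fallen to 5%, whereas the well-watered plants were irrigated as usual. All plants carried the same genotype and were kept at 30 °C with 12 h of light and 12 h of dark, 3 plants to a 6-litre pot, and the trifoliate leaf taken was number 3 below the growing shoot. There were 3 drought arrays (plants 11, 12 and 13) and 3 well-watered arrays (plants 1, 3 and 4).

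The hour of harvest was not given in the sources used here, nor whether both treatments were harvested at the same hour. Transcripts of both gene classes follow a daily course. A shift in the timing of the course, a change in its height and a difference in harvest hour between the treatments therefore cannot be told apart. The sources also do not say whether plants of the same treatment grew in a common pot, in which case the p-values would cover only plant-to-plant spread within it. In whole leaf, fewer cells expressing a gene and less of its RNA per cell cannot be told apart either. Expression is given on the log2 scale, and each probe set is centred on its own median of the 6 arrays. The level of a gene therefore cannot be set against that of another gene, signal over background is not known, and the identity of the tissue cannot be checked from leaf markers. Array medians lay between -0.00 and 0.04 in drought leaves and between -0.11 and 0.13 in well-watered leaves.

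The identifiers are those of the Glyma1 annotation, and 0 of them matched an entry of the 59048 genes in the RefSeq table for assembly Glycine_max_v4.0. The files give identifiers without gene names, which could therefore be looked up only by chromosome. RefSeq lists 1 LHY gene on each of chromosomes 16 (LCL1, also GmLHY1a), 7 (LCL4, also GmLHY1b), 3 (MYB114, also GmLHY2b) and 19 (LCL3, also GmLHY2a), the chromosomes of the 4 LHY/CCA1-like identifiers. It also lists 1 GIGANTEA gene on chromosome 20, with the synonyms GI1 and GmGIb, and E2 on chromosome 10, with the synonym GI2. RefSeq gives the name GmGI3 as a synonym of E2, whereas here GmGI3 stands for Glyma09g07240. No protein-coding RefSeq gene of chromosome 9 has GIGANTEA in its symbol or synonyms, so the name of Glyma09g07240 was looked up without a match.

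The clock genes moved in both directions in drought-stressed leaves. Of the 4 LHY/CCA1-like genes, 2 fell, Glyma03g42260 by 2.39-fold and Glyma19g45030 by 2.10-fold, and 2 did not pass the test. Of the 3 GIGANTEA genes, 2 rose, GmGI3 by 18.0-fold and GmGI1 by 2.49-fold, while E2 was 1.90-fold higher, short of the 2-fold criterion. The call rule asked for an adjusted p under 0.05 in limma and at least 2-fold change, by which 4.98% of all probe sets were called higher, 4.63% lower and 9.61% in either direction. Of the 7 clock genes, 4 were called. By the adjusted p alone 5 of the 7 passed, against 19.9% of all probe sets. The drought and well-watered arrays did not overlap in any of the 7 genes, which was also so for 36% of all probe sets. The median log2 change was -0.68 over the 4 LHY/CCA1-like genes and 1.32 over the 3 GIGANTEA genes, against 0.02 over all probe sets.

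**Figure D1:**
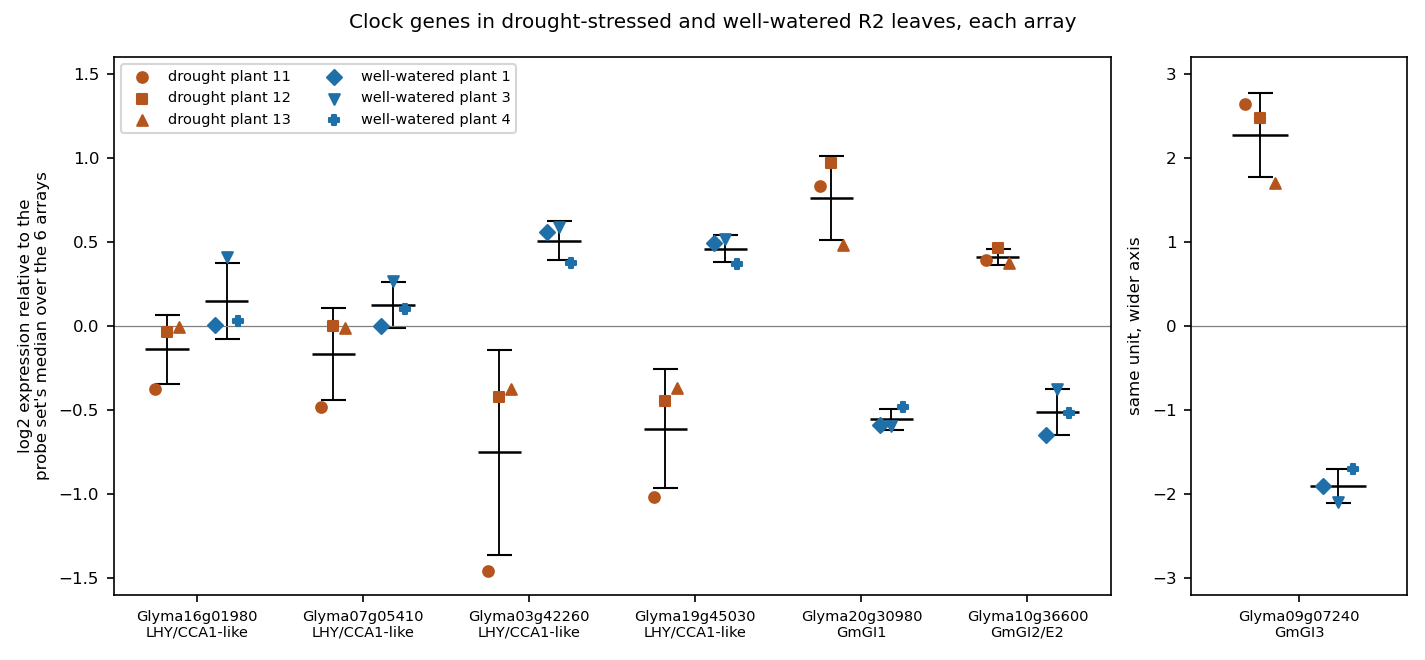
Log2 expression of the 7 clock genes relative to the median of each probe set, by array, with drought plants left of well-watered plants for each gene, the mean as a horizontal line, the SD as bars, and GmGI3 on a wider axis of its own. The LHY/CCA1-like genes lie lower in the drought arrays and the GIGANTEA genes higher, and the distance between the groups is widest in GmGI3 (3.40) and close to 0 in Glyma16g01980 and Glyma07g05410.

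Glyma03g42260, on chromosome 3, showed the largest fall of the 4 LHY/CCA1-like genes. Its log2 values were -1.46, -0.42 and -0.38 in drought plants 11, 12 and 13, against 0.56, 0.59 and 0.38 in well-watered plants 1, 3 and 4. All 3 drought plants were below all 3 well-watered plants, with plant 11 far below the other two. The mean was -0.75 ± 0.61 in drought leaves and 0.51 ± 0.11 in well-watered leaves (SD, n = 3 each), a log2 change of -1.26 ± 0.27 (SE, adjusted p = 0.00845 in limma). Because each probe set is centred on its median, the values on either side of the gap between separate groups mirror each other about 0, here -0.38 and 0.38. Without drought plant 11 the log2 change was -0.91 (adjusted p = 0.0125), which no longer met the 2-fold criterion.

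Glyma19g45030, on chromosome 19, behaved much like Glyma03g42260. Its log2 values were -1.02, -0.44 and -0.37 in drought plants 11, 12 and 13 and 0.49, 0.52 and 0.37 in well-watered plants 1, 3 and 4. Plant 11 was again the lowest of the drought plants, and the highest drought value lay 0.74 below the lowest well-watered value. The means were -0.61 ± 0.36 in drought leaves and 0.46 ± 0.080 in well-watered leaves (SD, n = 3 each). The log2 change of -1.07 ± 0.20 (SE, adjusted p = 0.00399 in limma) was close to the 2-fold criterion, and without drought plant 11 it was -0.87 (adjusted p = 0.0144).

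The other two LHY/CCA1-like genes differed little between the treatments. Glyma16g01980, on chromosome 16, had log2 values of -0.37, -0.03 and -0.0049 in drought plants 11, 12 and 13, against 0.0049, 0.41 and 0.03 in well-watered plants 1, 3 and 4. The groups touched, with 0.0099 between drought plant 13 and well-watered plant 1. Its log2 change was -0.29 ± 0.19 (SE, adjusted p = 0.361 in limma). Glyma07g05410, on chromosome 7, had values of -0.48, -0.00056 and -0.01 in drought plants 11, 12 and 13, against 0.00056, 0.27 and 0.10 in well-watered plants 1, 3 and 4. Here as well the distance between the groups came from the lowest drought plant and the highest well-watered plant, and the facing values were only 0.0011 apart. Its log2 change was -0.29 ± 0.19 (SE, adjusted p = 0.355 in limma). In size it was smaller than the range of the drought plants and slightly larger than that of the well-watered plants.

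Drought plant 11 had the lowest drought value in all 4 LHY/CCA1-like genes. Well-watered plant 3, whose array median was the highest of the 6 arrays at 0.13, had the highest well-watered value in all 4. After each array's median was subtracted, plant 3 was highest in Glyma16g01980 and Glyma07g05410, and plant 1 in Glyma03g42260 and Glyma19g45030.

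**Figure D2:**
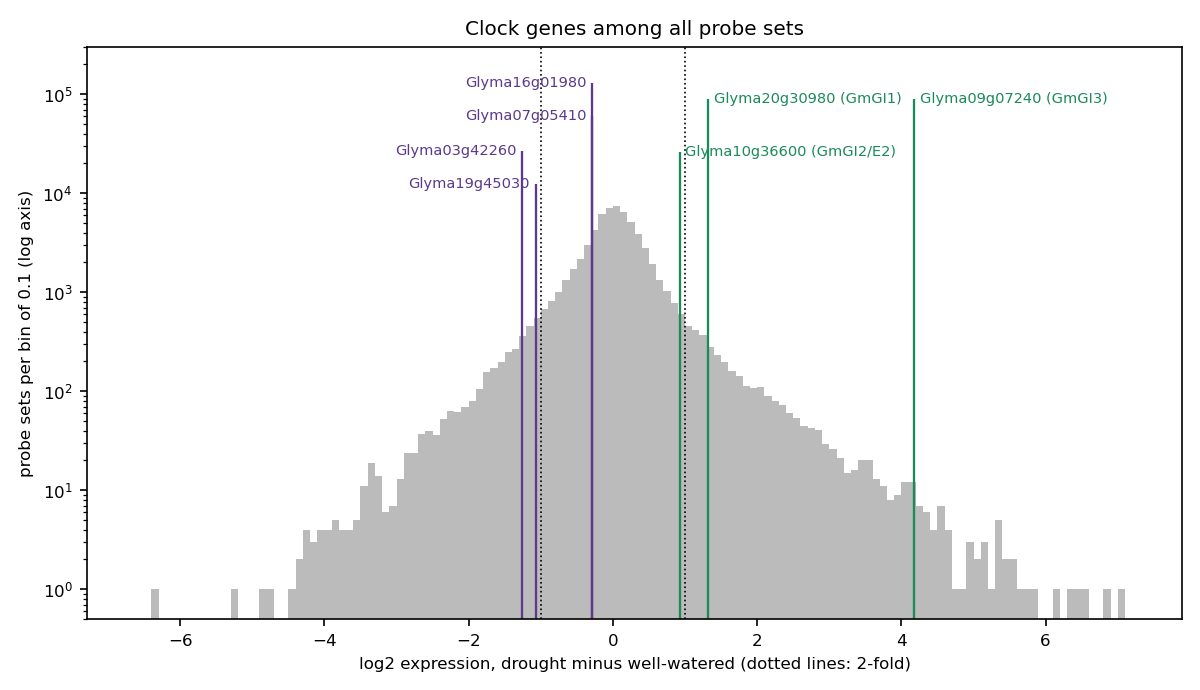
Distribution of the log2 change, drought minus well-watered, over all probe sets (grey, log count axis), with the 7 clock genes as vertical lines and the 2-fold criterion dotted. GmGI3 stands at rank 62 from the highest, whereas Glyma16g01980 and Glyma07g05410 coincide near -0.29 within the bulk of the probe sets.

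Of the GIGANTEA genes, GmGI3 (Glyma09g07240, chromosome 9) rose the most. Its log2 values were 2.65, 2.47 and 1.70 in drought plants 11, 12 and 13 and -1.91, -2.10 and -1.70 in well-watered plants 1, 3 and 4. The lowest drought plant was 3.40 above the highest well-watered plant, a distance several times the range within either treatment. The mean was 2.27 ± 0.50 in drought leaves and -1.90 ± 0.20 in well-watered leaves (SD, n = 3 each), a log2 change of 4.17 ± 0.25 (SE, adjusted p = 5.15e-06 in limma). Among all probe sets this change ranked 62 from the highest.

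GmGI1 (Glyma20g30980, chromosome 20) also rose. Its log2 values were 0.83, 0.97 and 0.48 in drought plants 11, 12 and 13, against -0.59, -0.59 and -0.48 in well-watered plants 1, 3 and 4. The well-watered plants were close to each other, and the lowest drought plant was 0.97 above them. The means were 0.76 ± 0.25 in drought leaves and -0.56 ± 0.062 in well-watered leaves (SD, n = 3 each). The log2 change was 1.32 ± 0.18 (SE, adjusted p = 0.000595 in limma), rank 2041 from the highest.

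E2 (GmGI2, Glyma10g36600, chromosome 10) had the smallest change of the 3 GIGANTEA genes. Its log2 values were 0.39, 0.46 and 0.37 in drought plants 11, 12 and 13 and -0.65, -0.37 and -0.52 in well-watered plants 1, 3 and 4. The drought plants lay within a narrow range, clear of the well-watered plants by 0.75. The mean was 0.41 ± 0.048 in drought leaves and -0.51 ± 0.14 in well-watered leaves (SD, n = 3 each). The log2 change of 0.92 ± 0.16 passed the adjusted p (0.00252 in limma) and missed the 2-fold criterion, so that E2 was not called. Drought plant 13 was the lowest drought plant in all 3 GIGANTEA genes, whereas plant 11 was the lowest in the LHY/CCA1-like genes.

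Whether members of a class responded by different amounts was tested on the difference between their probe sets in each array, which removes what an array shares between both. With 3 arrays against 3, an exact two-sided permutation test cannot give a p below 0.1, so none of these differences could pass 0.05. In all, 5 pairs were compared, and p-values were adjusted over them. Probe sequences were not used here, and duplicate genes can share probes or hybridise to those of their copy, which was not tested. None of the 7 probe sets had the same values as another probe set, although 214 probe sets on the array did.

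The responses of Glyma16g01980 and Glyma07g05410 differed by 0.0035 ± 0.074 on the log2 scale (SE, exact p = 0.9, adjusted 0.9). Between arrays, their difference ran from -0.03 to 0.11 in drought plants and from -0.07 to 0.14 in well-watered plants, so the values overlapped fully. Glyma19g45030 fell less than Glyma03g42260 by 0.19 ± 0.15 (SE, exact p = 0.2, adjusted 0.25). That difference was 0.44 in drought plant 11 and -0.02 and 0.0077 in drought plants 12 and 13, against -0.06, -0.07 and -0.0077 in well-watered plants 1, 3 and 4. The groups overlapped, and only drought plant 11 stood apart, without which the difference in response was 0.042.

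**Figure D3:**
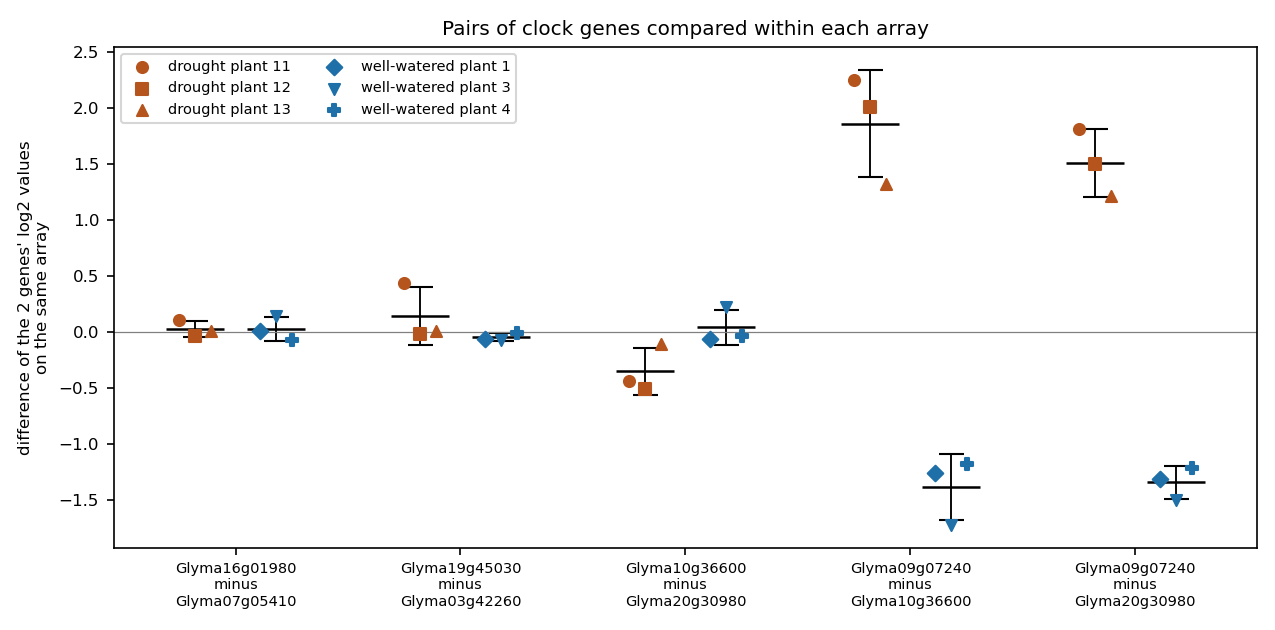
Difference in log2 expression between the probe sets of each of the 5 gene pairs, by array, drought plants left of well-watered plants, with the mean as a horizontal line and the SD as bars. The groups overlap for Glyma16g01980 minus Glyma07g05410, and lie far apart in the pairs with GmGI3.

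The GIGANTEA genes were spread more widely. GmGI3 exceeded GmGI1 in response by 2.85 ± 0.19 on the log2 scale, a 7.23-fold ratio of the fold changes (SE, exact p = 0.1, adjusted 0.167). Its difference from GmGI1 was 1.82, 1.50 and 1.21 in drought plants 11, 12 and 13, against -1.32, -1.50 and -1.21 in well-watered plants 1, 3 and 4. GmGI3 exceeded E2 by 3.25 ± 0.33, a 9.49-fold ratio (SE, exact p = 0.1, adjusted 0.167). The response of E2 was below that of GmGI1 by a smaller margin, -0.39 ± 0.15 (SE, exact p = 0.1, adjusted 0.167). The E2 minus GmGI1 difference was -0.44, -0.51 and -0.11 in drought plants 11, 12 and 13 and -0.06, 0.22 and -0.03 in well-watered plants 1, 3 and 4. In all 3 of these pairs the drought and well-watered arrays did not overlap, and p was the smallest the design allows.

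A further 4 differences between LHY/CCA1-like genes were chosen after the values had been seen and are given as a description, without a test. Glyma03g42260 changed by -0.97 ± 0.26 relative to Glyma16g01980 and by -0.97 ± 0.21 relative to Glyma07g05410 (SE). Glyma19g45030 changed by -0.78 ± 0.14 relative to Glyma16g01980 and by -0.78 ± 0.094 relative to Glyma07g05410 (SE).

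The same genes were fitted under other scalings, weights and tests. GmGI1 and GmGI3 were called higher under each of them and without any single array. The falls of Glyma03g42260 and Glyma19g45030 were not called with the methods' t-test (adjusted p = 0.113 and 0.0541), nor without drought plant 11. With array weights Glyma19g45030 also lost its call, at a log2 change of -0.995, just short of 2-fold. These weights were uneven, 3.96 for well-watered plant 4 against 0.48 and 0.34 for well-watered plants 1 and 3. The weighted well-watered mean thus rests mostly on plant 4. The sign of the change was kept in all 77 values recomputed for the 7 genes. Since the groups did not overlap in any of these genes, leaving out or weighting arrays could not change a sign. The methods' t-test and the dropped fold criterion use the same log2 change. Median subtraction moves the log2 change of every gene by the same amount, which was small (Glyma16g01980 from -0.286 to -0.297). Only quantile normalization could therefore have changed a sign.

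**Figure D4:**
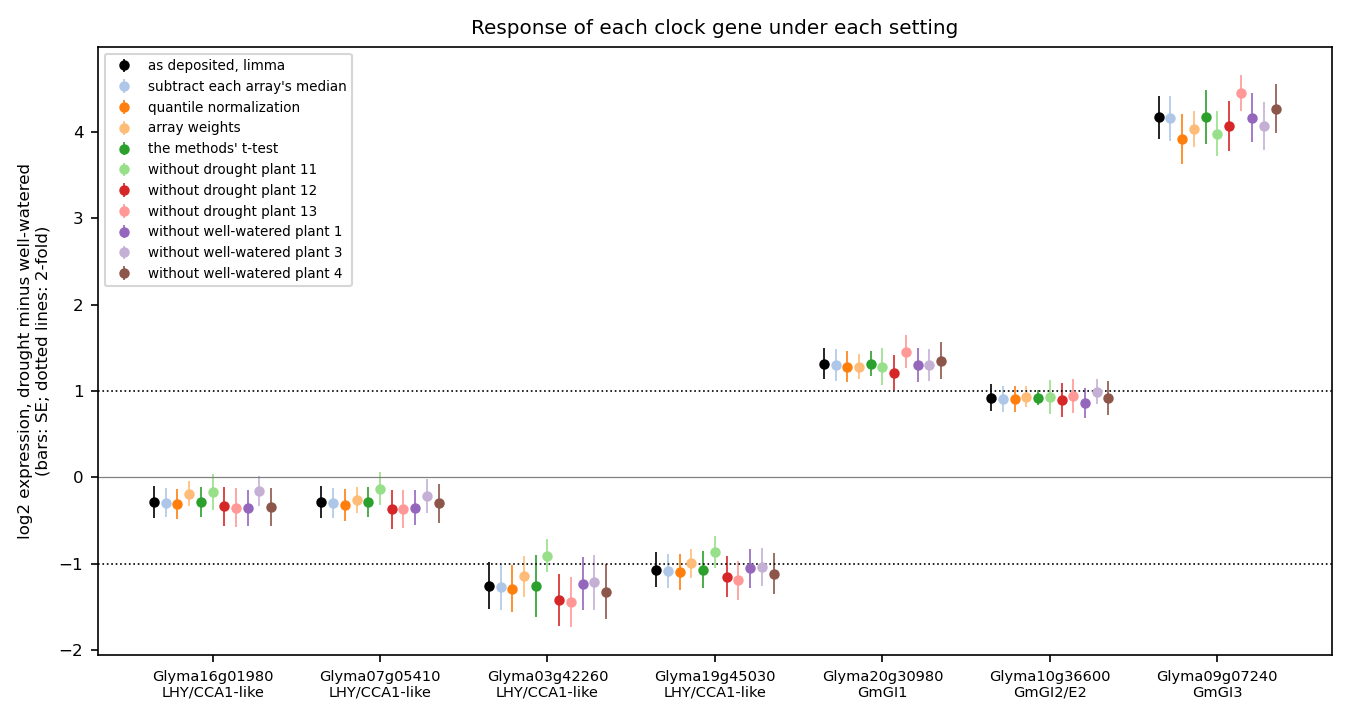
Log2 change, drought minus well-watered, of each of the 7 clock genes as reported and under each alternative, including each array left out in turn, with the SE as bars. GmGI3 ranges from 3.92 to 4.46, and Glyma03g42260 from -1.45 to -0.91, its smallest fall being the value without drought plant 11.

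Other genes of the clock and of light signalling were taken from chromosome 1 only, because the copy of the gene descriptions used here, by similarity to Arabidopsis, covered that chromosome. Those of other chromosomes were not analysed here. Of 5 such relatives, 1 was called higher, 2 were called lower and 2 neither, against 4.98% higher and 4.63% lower over all probe sets. Their median log2 change was -0.45, and the rise and 1 of the falls lay close to the 2-fold criterion. Glyma01g05960 resembles CDF3, of the DOF repressor family that GIGANTEA helps to remove in Arabidopsis. Its log2 values were -0.59, -0.50 and -0.71 in drought plants 11, 12 and 13, against 0.82, 0.70 and 0.50 in well-watered plants 1, 3 and 4. It fell in drought leaves with separate groups, by -1.27 ± 0.17 on the log2 scale (SE, adjusted p = 0.000484 in limma), and was called under every alternative run.

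Glyma01g39950 resembles CKA1, a catalytic subunit of casein kinase II, the kinase that phosphorylates CCA1 in Arabidopsis. It was 2.01-fold higher in drought leaves, a log2 change of 1.00 ± 0.17 (SE, adjusted p = 0.00228 in limma). The call rested on the 2-fold criterion, since the log2 change was 0.99 after each array's median was subtracted, 0.98 after quantile normalization and 0.94 with array weights. It was 0.90 without drought plant 11 and 0.95 without well-watered plant 3. Glyma01g05560, which resembles the phytochrome kinase substrate PKS1, was called lower at -1.05 ± 0.21 (SE, adjusted p = 0.00564 in limma) and fell short of 2-fold with array weights, at -0.94. It also fell short without drought plant 11 (-0.98), drought plant 12 (-0.97) or well-watered plant 3 (-0.87), and its adjusted p was 0.0679 with the methods' t-test. Neither the pseudo-response regulator relative Glyma01g40900 (APRR2, log2 change -0.45 ± 0.18) nor the MYB family gene Glyma01g36730 (0.15 ± 0.17) passed the test in limma (SE, adjusted p = 0.117 and 0.633).

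The 18 MYB relatives listed on chromosome 1 were not limited to close relatives of LHY and CCA1, and they include Glyma01g36730, given above. Of these 18, 0 were called higher and 1 was called lower, a share near that over all probe sets (4.63% lower). Of the other 17, 3 passed the adjusted p without reaching 2-fold, all of them higher in drought leaves. Over all probe sets, 19.9% passed the adjusted p in either direction, with or without reaching 2-fold. The log2 changes of the 18 MYB relatives ran from -1.06 to 0.84 with a median of -0.22. The gene called was Glyma01g05190, similar to MYB88, a regulator of stomatal patterning in Arabidopsis, at -1.06 ± 0.19 (SE, adjusted p = 0.00262 in limma), which fell short of 2-fold without drought plant 12 (-0.97) or well-watered plant 1 (-0.98). Leaf genes of photosystem II were represented by Glyma01g28810 (LHCB4.2) and Glyma01g38750 (PSBO2), at log2 changes of -0.81 and -0.95. Both passed the adjusted p in limma (0.00647 and 0.00254), and neither reached 2-fold, although PSBO2 did so without drought plant 12 (-1.01). How far a general shift of leaf transcripts takes part in the change of the clock genes was not tested.

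To describe the surroundings of the clock genes, the 5 genes on either side of each clock gene in identifier order were examined, 70 in all. Of these, 9 were called higher and 3 lower, or 17.1%, against 9.61% of all probe sets in either direction. The calls were unevenly spread, with 4 of 10 neighbours of Glyma16g01980 called and 0 of 10 neighbours of GmGI3. Both genes at places 4 and 5 before Glyma16g01980 were called higher, and so were both before Glyma07g05410. Whether these stretches are copies of each other, so that a rise is counted repeatedly, was not tested. Among the neighbours of the 2 LHY/CCA1-like genes that did not pass the test were NAC transcription factor genes of the study's lists. The study listed both as higher in drought-stressed R2 leaves from the same comparison, so their rise follows from how they were chosen. GmNAC121 (Glyma16g01940), 4 places before Glyma16g01980, had log2 values of 0.88, 0.68 and 1.65 in drought plants 11, 12 and 13, against -0.88, -0.68 and -0.96 in well-watered plants 1, 3 and 4. It rose 3.75-fold (log2 change 1.91 ± 0.25, SE, adjusted p = 0.000464 in limma and 0.0376 with the methods' t-test). GmNAC046 (Glyma07g05360), 5 places before Glyma07g05410, had values of 1.00, 0.77 and 1.96 in drought plants 11, 12 and 13, against -1.57, -0.77 and -0.98 in well-watered plants 1, 3 and 4. It rose 5.09-fold (log2 change 2.35 ± 0.31, SE, adjusted p = 0.000562 in limma and 0.0485 with the methods' t-test). In both NAC genes drought plant 13 was the highest, whereas that plant was the lowest drought plant in the 3 GIGANTEA genes.

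**Figure D5:**
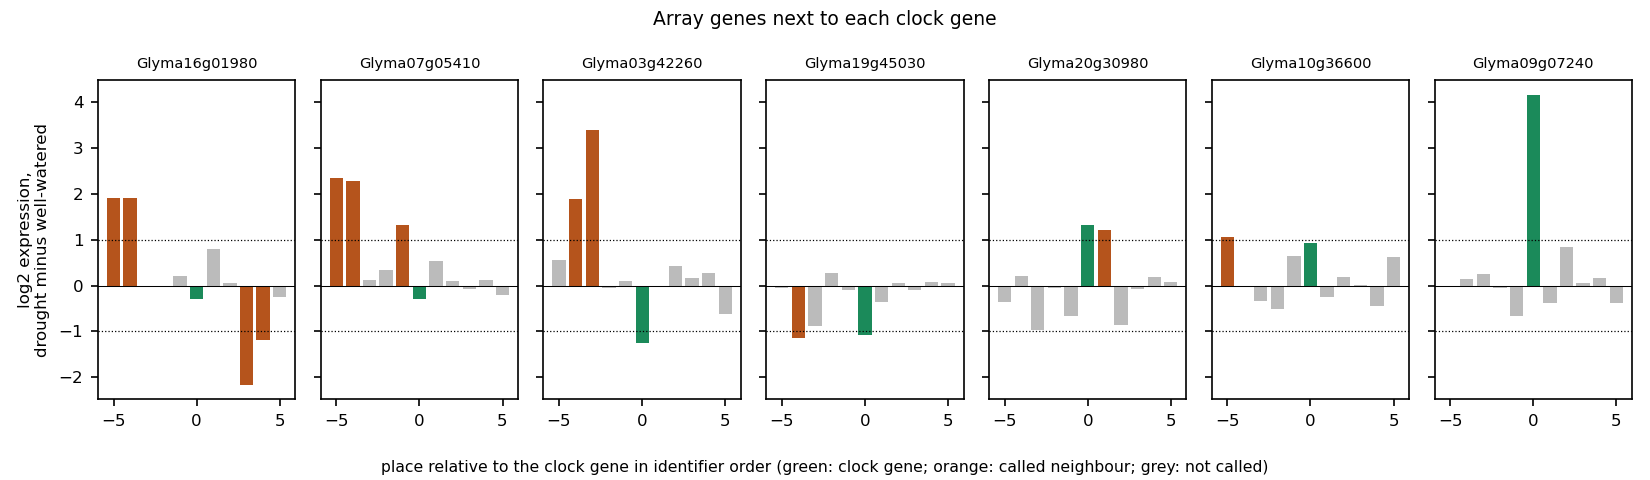
Log2 change, drought minus well-watered, of each clock gene (green, place 0) and of the 5 array genes on either side in identifier order, with called neighbours in orange and others in grey. Called neighbours lie on both sides of Glyma16g01980, and none lies beside GmGI3, which stands alone at 4.17.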

How the data were processed

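Leaf RNA of 3 drought-stressed and 3 well-watered plants was measured on the Affymetrix Soybean Gene 1.0 ST array. The deposited values are log2 expression per gene. The authors summarised probes with RMA in Expression Console (versions not given in the sources used here) and scaled each array to its 75th percentile in GeneSpring. The deposited log2 values are also centred on the median of each probe set, as read from the values (largest absolute median 5e-07), which removes absolute levels. The authors also deposited signed fold changes as a score per gene, p-values and corrected p-values, and these were not used. Only the identifiers of that table were used, to pair probe sets with genes.

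Groups were taken from the labels. All 66184 probe sets entered a single model of treatment, fitted with limma 3.58.1 (lmFit, eBayes; R 4.3.3). P-values were adjusted by Benjamini-Hochberg over all of them, and a call needed an adjusted p under 0.05 and at least 2-fold, the study's criteria. Permutation tests used scipy 1.17.1. The fit was tested on simulated data with independent normal noise in each probe set. Changes as small as those of the clock genes other than GmGI3 were not simulated, so the simulation does not bear on their calls. Alternatives were median subtraction, quantile normalization, array weights, the t-test of the methods, no fold criterion and leaving out each array. Named were all 7 clock genes, called genes of the lists and all 5 clock and light relatives, the 2 probe sets nearest to the mean profile of each class, and called NAC genes next to a clock gene. Both photosystem II genes were named besides this rule, after their values were seen. Members and lists were chosen with earlier results of these data known. Precision is limited by the number of arrays.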

Additional observations from a re-analysis of the deposited data

How the results depend on the processing

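The 2 GIGANTEA genes called higher were called under every alternative run, and 3 were called with no fold criterion, which adds E2. The count of clock genes called lower was 2 as reported, 1 with array weights and 0 with the methods' t-test, and it ran from 0 to 2 with each array left out in turn, the 0 being without drought plant 11. Over all probe sets, 6589 were higher and 6583 lower with no fold criterion, and 2041 were lower with the methods' t-test, against 3065 lower as reported. With each array left out, the calls over all probe sets ran from 3050 to 3523 higher and from 2861 to 3237 lower. Of 77 values recomputed for the 7 clock genes, 71 kept their sign and call, 5 lost the call, 1 gained it and 0 changed sign. In these 7 genes only quantile normalization could have changed a sign. The groups did not overlap, and median subtraction moves every gene by the same small amount. Of 154 values for 14 other named genes, 137 kept sign and call, 12 lost the call, 5 gained it and 0 changed sign. The difference in response between Glyma16g01980 and Glyma07g05410 had no stable sign, running from -0.044 to 0.061 on the log2 scale with each array left out, and it was negative without drought plant 11, well-watered plant 1 or well-watered plant 4. Scaling to the 75th percentile was not run, since the values were already scaled. No paired analysis was possible because the drought and well-watered plants share no number. Signal over background is not known, so that weak probe sets could not be set aside.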

Other observations

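Probe sets outside the clock genes were ranked by their distance over the 6 arrays from the mean profile of each class, as a description. The 2 nearest to the LHY/CCA1-like mean (log2 change -0.73) were Glyma04g32060, at a root mean square distance of 0.066 on the log2 scale, and Glyma10g20390, at 0.067. Their log2 changes were -0.75 ± 0.19 and -0.81 ± 0.19 (SE), close to that mean by the way they were selected. The 4 LHY/CCA1-like genes themselves were 0.18 to 0.31 from their mean. Nearest to the GIGANTEA mean (log2 change 2.14) were Glyma08g40690, at 0.058, and Glyma19g23720, at 0.094. Their log2 changes of 2.10 ± 0.18 and 2.06 ± 0.20 (SE) likewise follow from the selection. The 3 GIGANTEA genes were 0.41 to 1.04 from their mean, since the size of their response differed. These 4 probe sets carried no gene name in the sources used here.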
